A study of Mus musculus with 9 samples.

Results

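Galectins are lectins that bind galactose-containing sugars, and dendritic cells (DCs), which take up antigen and present it to T cells, make several of them. The genes described here are *Lgals1*, *Lgals3*, *Lgals8* and *Lgals9*, which encode galectin-1, galectin-3, galectin-8 and galectin-9, and *Lgals3bp*, which encodes a secreted glycoprotein that galectins bind. They were chosen by symbol, are 5 of the 24054 genes listed in the deposited files, and all 5 passed the filter on low counts that left 14452 genes for testing.

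The data are 9 mRNA-seq libraries of type 2 DCs sorted from spleens of Clec9a-Cre/Cre Rosa-tdTomato/tdTomato mice (C57BL/6). All groups carry Cre at both *Clec9a* alleles and so lack functional DNGR-1, the product of *Clec9a*. The red fluorescent protein TOMATO (TOM) permanently labels cells that expressed *Clec9a* or descend from such cells. The promoter is active in cDC precursors, in cDC1 and in some plasmacytoid DCs. Live single autofluorescence-negative MHCII+ CD11c+ CD11b+ cells were sorted after CD11c enrichment. Each of 3 groups has 3 libraries: young TOM+ cDC2 and young TOM- DC2, both taken at postnatal day 8 from pooled spleens, and adult TOM+ cDC2. Adult library 91 was made at an age of 9 weeks, adult libraries 92 and 95 at 8 weeks. Libraries are named by the number in their deposited names, which is 81, 91 or 92 in both young groups and 91, 92 or 95 in adults. No source used here states what the number means, or that libraries of a group came from separate litters, so p-values measure the spread between these libraries.

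Galectins lack a classical secretion signal and are found in the cytosol, in the nucleus and, after release, on cell surfaces, where they cross-link glycoproteins. Galectin-1 forms dimers of a single sugar-binding domain. Galectin-3 joins its sugar-binding domain to a flexible tail that lets it form larger assemblies. Galectin-8 and galectin-9 are tandem-repeat galectins, which carry a sugar-binding domain at each end. Inside cells, galectin-3 and galectin-8 gather on damaged endosomes and lysosomes. In lymphoid tissue galectin-1, galectin-3 and galectin-9 are best known for restraining T cells through glycoproteins on their surface. *Lgals9* and *Lgals3bp* are known to respond to interferon.

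In GRCm38.p6 coordinates from RefSeq, the genome of the mm10 build to which the authors aligned, *Lgals1* lies on chromosome 15 (78926725 to 78930465), *Lgals3* on chromosome 14 (47373860 to 47386167), *Lgals8* on chromosome 13 (12439402 to 12464977), *Lgals9* on chromosome 11 (78962979 to 78984924) and *Lgals3bp* on the same chromosome (118392747 to 118401959). The stretches before the start sites of *Lgals3bp* and *Lgals9* are shown because the results below set these genes beside interferon-stimulated genes. Each is the 250 bases upstream of the RefSeq start site, 5′ to 3′ on the minus strand of GRCm38.p6, at chr11:118401960-118402209 for *Lgals3bp* and chr11:78984925-78985174 for *Lgals9*. Capitals mark matches, on either strand, to AANNGAAA, the core that interferon regulatory factors bind, and to the longer core of interferon-stimulated response elements, which is GAAA, any 2 bases and GAAA again, and so contains it.
Lgals3bp: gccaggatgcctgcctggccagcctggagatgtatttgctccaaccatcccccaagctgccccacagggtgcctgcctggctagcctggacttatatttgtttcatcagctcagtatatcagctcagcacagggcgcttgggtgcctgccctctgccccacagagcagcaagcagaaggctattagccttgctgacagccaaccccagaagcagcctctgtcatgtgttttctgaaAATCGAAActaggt
Lgals9: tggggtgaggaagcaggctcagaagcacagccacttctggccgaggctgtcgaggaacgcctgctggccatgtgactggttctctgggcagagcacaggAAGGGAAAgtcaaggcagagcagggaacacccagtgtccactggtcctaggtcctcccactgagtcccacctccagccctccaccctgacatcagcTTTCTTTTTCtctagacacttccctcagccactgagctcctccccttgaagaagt
The *Lgals3bp* stretch held 1 match to the core, 14 to 7 bases before the start site, and 0 to the longer element. The *Lgals9* stretch held 2 matches to the core, of which the nearer lies inside its match to the longer element 55 to 46 bases before the start site. The corresponding stretches of *Lgals3* and *Lgals8* held 0 matches to either. That of *Lgals8*, chr13:12461739-12461988 on the minus strand, lies before a start site inside the span of the gene given above. The bases upstream of that whole span were not searched. Of 32851 such stretches of mouse genes, 21.3% held the core and 2.98% the longer element. Of 22 stretches of 19 genes on the list of type I interferon-stimulated genes used below, 54.5% held the core and 40.9% the longer element. These are matches of letters and were not tested as binding sites.

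Reads counted on genes numbered 12783252 to 22809401 per library, and between 26.1% and 31.6% of all reads were assigned to no gene. Each of the 5 genes had at least 243 counts in every library, and STAR's counts were 98.3% to 107% of the counts RSEM estimated for them. All 11 markers of cDC2 were present in every group, with sums of 70120 to 114600 TPM (a level corrected for transcript length and library depth), highest in adults. Young TOM- DC2 library 81 stood apart, with 1175 TPM of erythroid and 38.1 TPM of neutrophil markers, against 1.39 to 120 TPM and 0.34 to 1.78 TPM in the other 8 libraries. Several results that rest on it, including counts of lists of related genes, are also given without it. Single genes named from those lists are not, apart from *Grifin*. Marker sums of macrophages were 187 to 240 TPM in young TOM+ cDC2, 292 to 357 TPM in young TOM- DC2 and 107 to 157 TPM in adults, and those of monocytes 1331 to 1453, 1196 to 1274 and 1309 to 1625 TPM. ESAM-high cDC2 markers summed to 234 to 366 TPM and 320 to 452 TPM in the young groups and 688 to 723 TPM in adults. By the tests below, 4 of 6 were higher in adults than in young TOM+ cDC2, where 19.5% of all tested genes were. Compared with young TOM- DC2, 4 of 6 were also higher in adults, beside 16.9% of all tested genes. ESAM-low markers were at 1979 to 2810, 2090 to 3335 and 2018 to 2504 TPM. In the same order B cell markers summed to 107 to 157, 118 to 181 and 173 to 181 TPM, T cell markers to 27.8 to 28.6, 39.0 to 40.6 and 22.2 to 32.5 TPM, cDC1 markers to 202 to 216, 217 to 233 and 240 to 253 TPM, pDC markers to 157 to 172, 153 to 178 and 165 to 203 TPM, and ILC3 markers to 149 to 187, 216 to 283 and 282 to 338 TPM.

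*Lgals1* and *Lgals3* were higher in both young groups than in adult TOM+ cDC2, *Lgals8* and *Lgals3bp* were higher in adults, and *Lgals9* did not pass the test. Between young TOM+ cDC2 and adult TOM+ cDC2, 2 of the 5 genes passed an adjusted p (padj) of 0.05 as higher in the young, where 21.0% of all tested genes did, and 2 as higher in adults, where 19.5% did. With a log2 fold change (log2FC) beyond 1 as well, which is what "called" means here, 3 of the 5 were called, against 12.8% of all tested genes. Between young TOM- DC2 and the adults, 2 passed as higher in the young (19.4% of all tested genes) and 2 as higher in adults (16.9%), and 2 were called (11.3%). Both comparisons use the same 3 adult libraries and so are not independent. All tests are edgeR's quasi-likelihood test on counts, and folds and log2FC are on its scale, while TPM are levels. In bulk libraries like these, fewer cells that make a transcript and less of it per cell cannot be told apart.

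**Figure D1:**
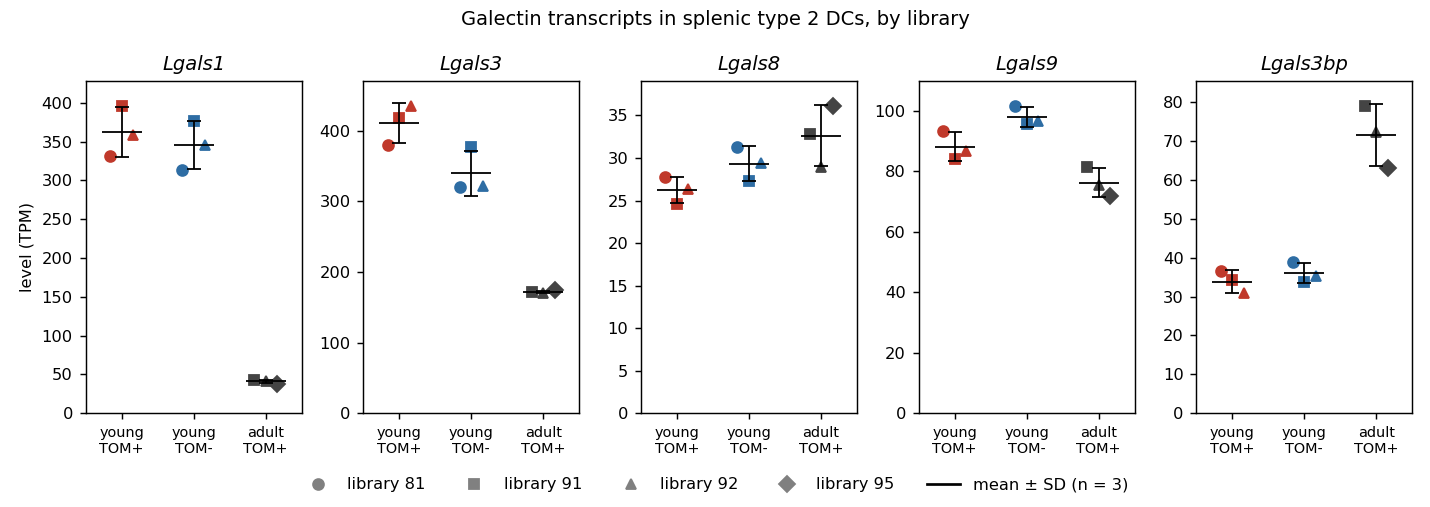
Levels of the 5 genes in TPM (vertical axes, each from 0) in young TOM+ cDC2, young TOM- DC2 and adult TOM+ cDC2, with a point for each library shaped by its number and black bars for mean ± SD (n = 3). *Lgals1* and *Lgals3* lie far higher in both young groups, *Lgals3bp* lies higher in adults, and *Lgals8* and *Lgals9* differ little.

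*Lgals1*, the gene of galectin-1, showed the largest difference of the 5. It measured 332, 396 and 359 TPM in young TOM+ cDC2 libraries 81, 91 and 92, 314, 377 and 346 TPM in young TOM- DC2 libraries of the same numbers, and 42.5, 42.0 and 38.3 TPM in adult libraries 91, 92 and 95. Every young library was above every adult library, and the young groups overlapped. The level was 362 ± 32.3 TPM (SD, n = 3) in young TOM+ cDC2, 346 ± 31.4 TPM in young TOM- DC2 and 40.9 ± 2.33 TPM in adults. *Lgals1* was 8.03-fold higher in young TOM+ cDC2 than in adults (log2FC 3.01, SE 0.13, edgeR padj = 3.84e-08) and ranked 9 of all tested genes by p. It was 7.5-fold higher in young TOM- DC2 (log2FC 2.91, SE 0.13, edgeR padj = 5.04e-08). In young TOM+ cDC2 its mean level stood above 97.1% of tested genes, in adults above 75.5%.

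*Lgals3*, the gene of galectin-3, measured 380, 417 and 435 TPM in young TOM+ cDC2 libraries 81, 91 and 92, 321, 376 and 322 TPM in young TOM- DC2, and 172, 170 and 174 TPM in adult libraries 91, 92 and 95. Each group was apart from the others in TPM, with the adult libraries the lowest and the closest together. The level was 411 ± 28.3 TPM (SD, n = 3) in young TOM+ cDC2, 340 ± 31.7 TPM in young TOM- DC2 and 172 ± 1.98 TPM in adults. Compared with adults, *Lgals3* was 2.20-fold higher in young TOM+ cDC2 (log2FC 1.14, SE 0.11, edgeR padj = 8.36e-06) and 1.78-fold higher in young TOM- DC2 (log2FC 0.83, SE 0.11, edgeR padj = 9.76e-05). The latter passed the test and was not called. Macrophages are known to make galectin-3. Of 13 tested macrophage markers 4 were higher (21.0% of all tested genes) and 1 lower (19.5%) in young TOM+ cDC2 than in adults. In young TOM- DC2 7 were higher (19.4%), a count not repeated without library 81. None of these 13 markers was at 0 in all libraries of a group, and their part in the difference was not tested. Those higher in young TOM+ cDC2 were *Cd163* (log2FC 2.18), *Timd4* (1.68), *Hmox1* (1.52) and *Spic* (0.58), and *Vcam1* was lower (-0.74). In young TOM- DC2 they were *Hmox1* (2.19), *Mertk* (1.99), *Cd163* (1.24), *Spic* (1.11), *C1qb* (0.98), *C1qa* (0.79) and *C1qc* (0.77). The monocyte and macrophage marker *Fcgr1* had at most 38 counts in a library and did not pass against adults. It was at 0.59, 0.87 and 0.59 TPM in young TOM+ cDC2, young TOM- DC2 and adults.

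*Lgals8*, the gene of galectin-8, which marks damaged vesicles for autophagy, was the lowest of the 5 in every group mean. It measured 27.7, 24.6 and 26.4 TPM in young TOM+ cDC2 libraries 81, 91 and 92, 31.3, 27.2 and 29.4 TPM in young TOM- DC2, and 32.8, 28.9 and 36.1 TPM in adult libraries 91, 92 and 95. Young TOM+ cDC2 lay below the adults, and young TOM- DC2 overlapped both. *Lgals8* was 1.37-fold higher in adults than in young TOM+ cDC2 (log2FC -0.45, SE 0.09, edgeR padj = 0.00179) and 1.25-fold higher than in young TOM- DC2 (log2FC -0.33, SE 0.09, edgeR padj = 0.0146). The second of these did not pass without adult library 95 (log2FC -0.26, edgeR padj = 0.0541) or under limma on TPM.

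*Lgals9*, the gene of galectin-9, measured 93.2, 83.9 and 86.8 TPM in young TOM+ cDC2 libraries 81, 91 and 92, 102, 95.5 and 96.5 TPM in young TOM- DC2, and 81.2, 75.5 and 71.8 TPM in adult libraries 91, 92 and 95. The groups were apart in TPM, by small steps, with TOM- DC2 the highest. On the scale of the test, which corrects for the make-up of the libraries, the log2FC was 0.08 for young TOM+ cDC2 against adults (95% interval -0.10 to 0.26, edgeR padj = 0.475) and 0.20 for young TOM- DC2 against adults (95% interval 0.02 to 0.38, edgeR padj = 0.0748). Neither passed, and the intervals leave room for a difference of up to 0.38 on the log2 scale. Whether *Lgals9* passed depended on the scale, and it was called on neither: on log2(TPM + 1), limma gave log2FC of 0.21 (limma padj = 0.035) and 0.36 (limma padj = 0.00263), both past the threshold, where the median of all genes moved from 0.05 to 0.10 and from 0.07 to 0.14. Without adult library 91, the difference of young TOM- DC2 also passed by edgeR (log2FC 0.26, padj = 0.0458).

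*Lgals3bp*, which encodes the galectin-3-binding protein, ran opposite to *Lgals3*. It measured 36.5, 34.2 and 30.8 TPM in young TOM+ cDC2 libraries 81, 91 and 92, 38.8, 33.8 and 35.2 TPM in young TOM- DC2, and 79.0, 72.3 and 63.1 TPM in adult libraries 91, 92 and 95. Every adult library was above every young library, and the young groups overlapped. The level was 33.8 ± 2.88 TPM (SD, n = 3) in young TOM+ cDC2, 35.9 ± 2.56 TPM in young TOM- DC2 and 71.5 ± 8.02 TPM in adults. *Lgals3bp* was 2.31-fold higher in adults than in young TOM+ cDC2 (log2FC -1.21, SE 0.10, edgeR padj = 3.32e-06) and 2.22-fold higher than in young TOM- DC2 (log2FC -1.15, SE 0.10, edgeR padj = 6.64e-06). The latter passed but was not called by limma on TPM, where its log2FC on log2(TPM + 1) was -0.97.

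**Figure D2:**
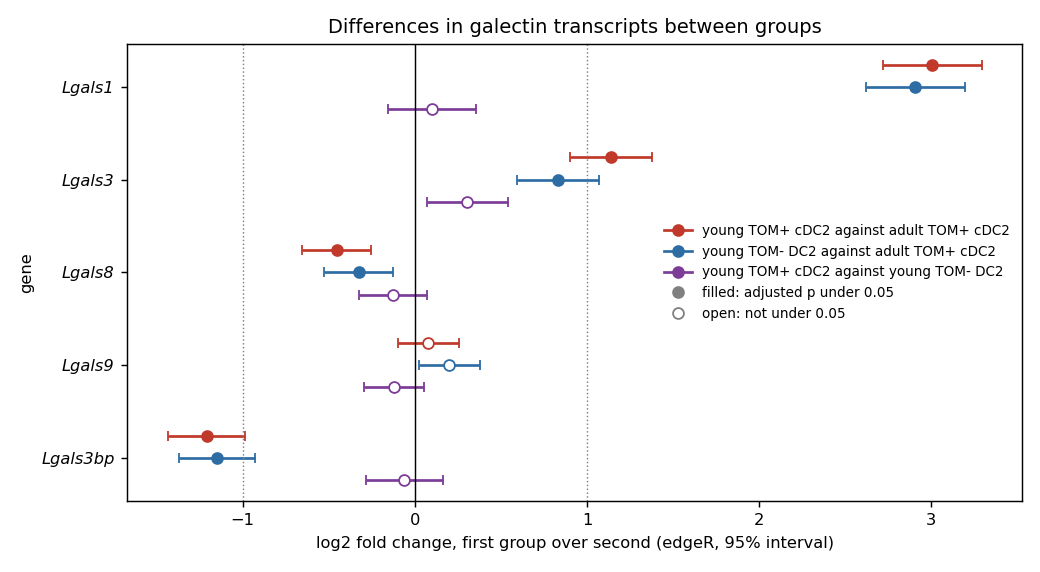
Log2 fold changes of the 5 genes by edgeR (horizontal axis, first group over second) with 95% intervals, in 3 comparisons set apart by color. Filled points passed an adjusted p of 0.05, open points did not, and dotted lines mark a log2 fold change of 1 in either direction. *Lgals1* stands at about 3 in both comparisons with adults and *Lgals3bp* beyond -1, while all 5 intervals between the young groups lie within 0.54 of 0.

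The make-up of the galectin transcripts differed with age as well. The 5 levels summed to 869 to 956 TPM in young TOM+ cDC2, 807 to 910 TPM in young TOM- DC2 and 383 to 407 TPM in adult TOM+ cDC2. *Lgals1* and *Lgals3* made up 81.9% to 85.1%, 78.7% to 82.8% and 52.6% to 55.3% of that sum in the same order. The level of *Lgals3* was 1.05 to 1.21 times that of *Lgals1* in young TOM+ cDC2, 0.93 to 1.02 times in young TOM- DC2 and 4.04 to 4.54 times in adults. By mean TPM, the order in young TOM+ cDC2 was *Lgals3*, *Lgals1*, *Lgals9*, *Lgals3bp*, *Lgals8*, where the libraries of the first pair overlapped. In young TOM- DC2, *Lgals1* and *Lgals3* stood within their spread of each other. In adults the order was *Lgals3*, *Lgals9*, *Lgals3bp*, *Lgals1*, *Lgals8*, and *Lgals9* and *Lgals3bp* overlapped between libraries. *Lgals1* thus lay below *Lgals9* and *Lgals3bp* in adults and above both in the young.

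**Figure D3:**
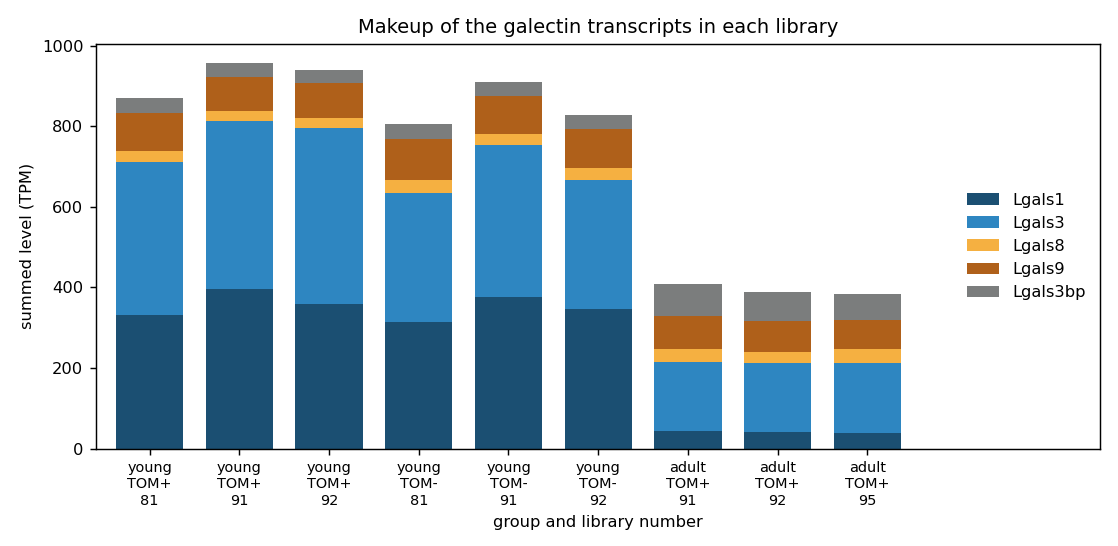
Summed level of the 5 genes in each library (vertical axis, TPM, from 0), with a bar for each library and a color for each gene. Bars of the 6 young libraries reach 807 to 956 TPM and are mostly *Lgals1* and *Lgals3*, and bars of the 3 adult libraries reach 383 to 407 TPM with little *Lgals1*.

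Between young TOM+ cDC2 and young TOM- DC2, 0 of the 5 genes passed by edgeR without regard to library numbers, where 0.125% of all tested genes passed as higher in TOM+ cDC2, 1.47% as higher in TOM- DC2 and 1.18% were called. At an unadjusted p under 0.05 it was 1 gene, *Lgals3*, where 3.01% of all tested genes were higher in TOM+ cDC2 and 6.37% in TOM- DC2, and by DESeq2 and by limma on log2(TPM + 1) it was 0. The log2FC, as TOM+ over TOM-, were 0.10 for *Lgals1* (95% interval -0.15 to 0.35), 0.30 for *Lgals3* (0.07 to 0.54), -0.13 for *Lgals8* (-0.33 to 0.07), -0.12 for *Lgals9* (-0.30 to 0.05) and -0.06 for *Lgals3bp* (-0.28 to 0.16). Young libraries of the same number deviated together from their group means, and taking the number as a replicate block brought *Lgals3* past the threshold on padj, though its log2FC stayed under 1 and it was not called. With the block, *Lgals3* was higher in TOM+ cDC2 with a log2FC of 0.31 (SE 0.06, edgeR padj = 0.00443, against 0.306 without it), and the other 4 genes did not pass. Of all tested genes 2.23% passed with the block as higher in TOM+ cDC2 and 4.34% as higher in TOM- DC2. The same block raised the genes called from 170 to 274.

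Within the pairs of young libraries that share a number, *Lgals3* TPM was 1.11 to 1.35 times as high in TOM+ cDC2 as in TOM- DC2, and higher in 3 of 3 pairs. *Lgals1* was higher in 3 of 3 pairs by 1.04 to 1.06 times. *Lgals8* and *Lgals9* were lower in TOM+ cDC2 in 3 of 3 pairs, at 0.885 to 0.902 and 0.878 to 0.917 times the level in TOM- DC2. *Lgals3bp* was lower in 2 pairs and higher in 1, from 0.875 to 1.01 times. Of the 13 macrophage markers, which summed to more in TOM- DC2, 1 passed between the young groups, *Cd163*, higher in TOM+ cDC2 like *Lgals3* (log2FC 0.95, edgeR padj = 0.026), and their part in the difference of *Lgals3* was not tested. Without young TOM- DC2 library 81 and without the block, the log2FC of *Lgals3* was 0.22 (edgeR padj = 0.59) and that of *Lgals1* was -0.00159, turned in sign. Against adults, young TOM- DC2 without that library kept the calls of *Lgals1* (log2FC 3.01) and *Lgals3bp* (log2FC -1.16), and *Lgals3* (log2FC 0.92, edgeR padj = 6.65e-05) and *Lgals8* (log2FC -0.32, edgeR padj = 0.0354) still passed.

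**Figure D4:**
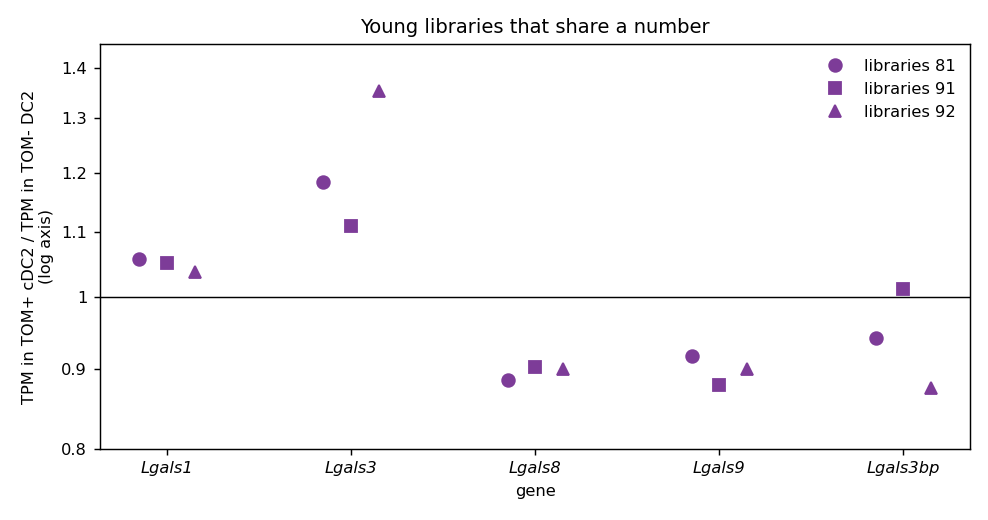
Ratio of the TPM in young TOM+ cDC2 to that in young TOM- DC2 (vertical axis, log scale) for each gene, with a point for each of the 3 pairs of libraries that share a number. *Lgals3* lies between 1.11 and 1.35 in all 3 pairs, *Lgals1* just above 1, *Lgals8* and *Lgals9* near 0.9, and *Lgals3bp* on both sides of 1.

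Of 8 other genes of the galectin family, 7 were listed in the files and 4 passed the filter. *Lgalsl*, which encodes a galectin-related protein, measured 1.83 to 2.16 TPM in young TOM+ cDC2, 1.85 to 2.93 TPM in young TOM- DC2 and 0.23 to 0.55 TPM in adults. It was higher in both young groups (log2FC 2.04, edgeR padj = 0.00021, and log2FC 2.17, edgeR padj = 0.00016), the direction of *Lgals1* and *Lgals3*. *Grifin*, a galectin-related gene first described in the lens, measured 13.45, 6.00 and 8.59 TPM in young TOM- DC2 libraries 81, 91 and 92, against 0.61 to 1.47 TPM in young TOM+ cDC2 and 0.28 to 1.1 TPM in adults. It was higher in TOM- DC2 than in young TOM+ cDC2 (log2FC -2.68 as TOM+ over TOM-, edgeR padj = 0.00917) and than in adults (log2FC 3.84, edgeR padj = 0.000225), from at most 60 counts in a library. Without young TOM- DC2 library 81, *Grifin* still passed in both (log2FC -2.39, edgeR padj = 0.0361, and log2FC 3.55, edgeR padj = 0.000755). *Lgals2* reached 1.29 TPM and *Lgals4* 8.01 TPM at most, and neither passed in any comparison. *Lgals4* and *Lgals6* are near-identical copies, and the counts tested may lack reads that match both. In adult library 95, *Lgals6* had 0 counts at 2.84 TPM. *Lgals6* and *Lgals7* had at most 2 counts in any library and *Lgals12* had 0, which allows up to 3 counts. *Lgalslb* is not analysed here.

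Glycoproteins and receptors that galectins are known to bind moved in both directions with age. Of 20 tested, 6 were higher in young TOM+ cDC2 (21.0% of all tested genes), 8 were higher in adult TOM+ cDC2 (19.5%) and 6 did not pass, with a median log2FC of -0.16 beside 0.05 over all genes. Without young TOM- DC2 library 81 these counts were 5 and 8. Those called were *Lag3*, an inhibitory receptor that binds galectin-3, at 1.25 ± 0.07 against 9.36 ± 0.34 TPM (SD, n = 3, log2FC -3.06), *Cd7*, a galectin-1 receptor, at 228 ± 23.4 against 859 ± 31.2 TPM (log2FC -2.04), and *Tnfrsf9*, the gene of the galectin-9 partner 4-1BB, at 1.74 to 2.73 against 3.80 to 12.9 TPM (log2FC -1.72, edgeR padj = 0.00544). Between young TOM- DC2 and adults, 8 were higher in the young (19.4% of all tested genes) and 7 in adults (16.9%), and 6 and 7 without library 81. The largest differences called there were *Cd2*, an adhesion receptor gene of T cells (log2FC 3.03), *Cd93* (log2FC -2.62), *Lag3* (log2FC -2.23) and *Mertk*, a receptor for which galectin-3 has been described as a ligand (log2FC 1.99). *Cd2* and *Cd93* had at most 36 and 32 counts in a library. Between the young groups *Cd7*, named after its values were seen, was the 1 gene that passed, with 408 ± 48.0 TPM in TOM- DC2 (log2FC -0.81, edgeR padj = 0.000667). With the replicate block 7 of 20 passed, 1 higher in TOM+ cDC2 and 6 higher in TOM- DC2, beside 2.23% and 4.34% of all tested genes.

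Enzymes that build or cap the sugars galectins bind were more often higher in adults. Of 23 tested, 4 were higher in young TOM+ cDC2 (21.0% of all tested genes), 11 were higher in adults (19.5%) and 8 did not pass. The median log2FC was -0.23. The 4 called were *B3gnt5* (log2FC -2.12), which extends glycolipid chains rather than those of proteins, *Mgat5* (log2FC -1.47), whose branched N-glycans are strong galectin ligands, *St3gal6* (log2FC -1.40), a sialyltransferase, and *Man1a* (log2FC -1.29), a mannosidase that trims N-glycans. *Mgat5* measured 2.18 ± 0.78 TPM in young TOM+ cDC2, 2.92 ± 0.79 TPM in young TOM- DC2 and 5.75 ± 0.58 TPM in adults (SD, n = 3). Between young TOM- DC2 and adults, 2 were higher in the young (19.4% of all tested genes) and 11 in adults (16.9%). The called genes were *Man1a* (log2FC -1.35), *Mgat5* (log2FC -1.14), *B3gnt5* (log2FC -1.13) and *St3gal6* (log2FC -1.06). Without young TOM- DC2 library 81 the counts in the young and in adults came to 3 and 12. With the replicate block they came to 5 and 13, beside 23.6% and 21.7% of all tested genes. Between the young groups *B3gnt5* was the 1 gene that passed, higher in TOM- DC2 (log2FC -0.9952, edgeR padj = 0.033). The replicate block gave 3 higher in TOM+ cDC2 and 1 higher in TOM- DC2, beside 2.23% and 4.34% of all tested genes.

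Genes that act with galectin-3 and galectin-8 at damaged lysosomes were more often higher in adults than in the young. Of 18 tested, 1 was higher in young TOM+ cDC2 (21.0% of all tested genes), 9 were higher in adults (19.5%) and 8 did not pass. The median log2FC was -0.32. The gene higher in the young was *Trim16*, whose protein binds galectin-3 in autophagy, at 1.59 ± 0.54 against 0.43 ± 0.13 TPM (SD, n = 3, log2FC 1.79, edgeR padj = 9e-04). The called genes higher in adults were *Map1lc3a* (log2FC -1.31) and *Gabarapl1* (log2FC -1.05), which encode proteins of the autophagosome membrane, and *Calcoco1* (log2FC -1.002), an autophagy receptor gene. In young TOM- DC2 against adults, 1 was higher in the young (19.4% of all tested genes), again *Trim16* (log2FC 1.65). In adults 8 were higher (16.9% of all tested genes), or 6 without library 81. *Calcoco2*, the gene of the receptor that binds galectin-8 on damaged vesicles in human cells, had 0 counts in every library and was not tested. Between the young groups 0 of 18 passed by edgeR, DESeq2 or limma. At an unadjusted p under 0.05 there were 2 and with the replicate block 1, all higher in TOM- DC2. By these rules 6.37% and 4.34% of all tested genes were higher there.

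Type I interferon-stimulated genes were higher in adults, in the direction of *Lgals3bp*. All 27 were higher in adults than in young TOM+ cDC2 (19.5% of all tested genes), and 18 of them were called (12.8%). The median log2FC was -1.63 beside 0.05 over all genes. Between young TOM- DC2 and adults 26 of 27 were higher in adults (16.9% of all tested genes) and 18 were called (11.3%). The median there was -1.34 beside 0.07. With the replicate block 27 of the list were higher in adults, beside 21.7% of all tested genes. Their summed level was 792 to 962 TPM in young TOM+ cDC2, 926 to 1053 TPM in young TOM- DC2 and 2048 to 2259 TPM in adults. The largest differences from young TOM+ cDC2 were *Ifi44* (log2FC -4.58), *Oas2* (log2FC -2.93), *Oas3* (log2FC -2.60) and *Oasl2* (log2FC -2.38), the last 3 of the oligoadenylate synthetase family that senses viral RNA. From young TOM- DC2 they were *Ifi44* (log2FC -3.94), *Oas3* (log2FC -2.64), *Oas2* (log2FC -2.43) and *Zbp1*, a nucleic acid sensor (log2FC -2.15). The log2FC of *Lgals3bp*, -1.21 and -1.15, were nearer 0 than both list medians, and those of *Lgals9*, 0.08 and 0.20, lay on the other side of 0. Between the young groups 0 of 27 passed by edgeR, DESeq2 or limma, 7 had an unadjusted p under 0.05 and 7 passed with the replicate block, all higher in TOM- DC2, as were 6.37% and 4.34% of all tested genes by these rules. There *Lgals3bp* had a log2FC of -0.06 with or without the block.

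**Figure D5:**
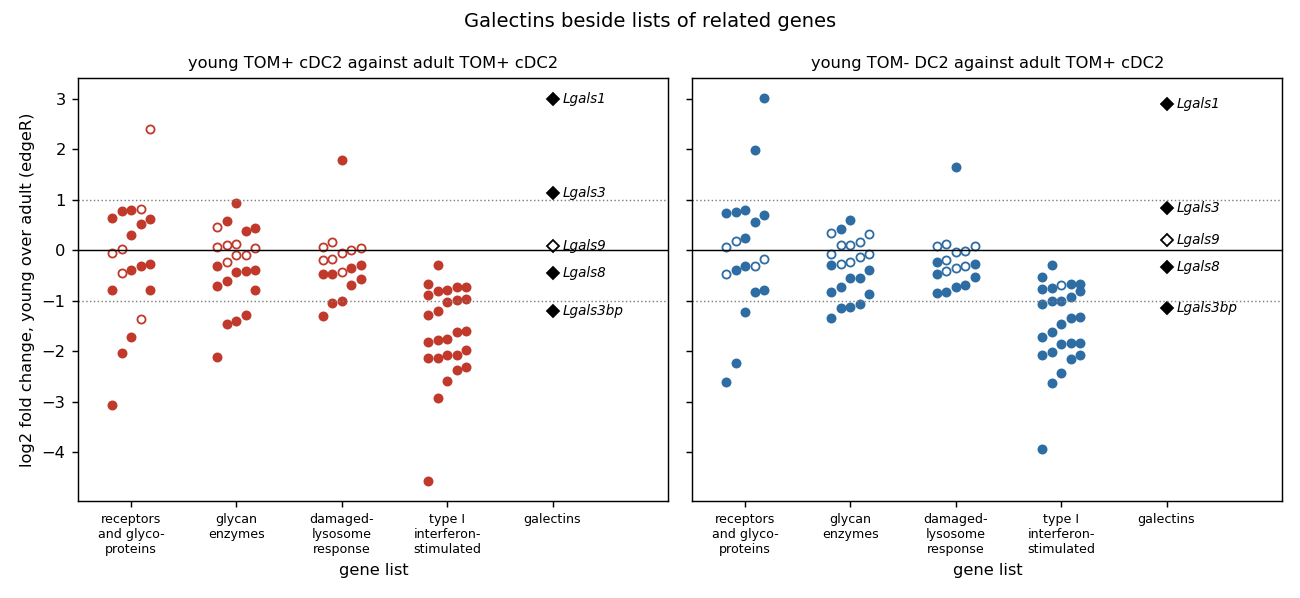
Log2 fold changes by edgeR (vertical axis, young over adult) of the tested genes of 4 lists and of the 5 genes described here, for young TOM+ cDC2 (left) and young TOM- DC2 (right) against the same adult libraries. Each point is a gene, filled where its adjusted p was under 0.05, and dotted lines mark a log2 fold change of 1 in either direction. All points of the interferon-stimulated list lie below 0, *Lgals3bp* lies among them, and *Lgals1* and *Lgals3* lie above 0.

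The genes whose profiles over the 9 libraries lay nearest to each of the 5 were found among the 9261 genes averaging 100 counts or more, by the root mean square difference of mean-centered log2(CPM). Nearest to *Lgals1* were *Olfm1*, *Plxdc2* and *BC021614*, at 0.213, 0.215 and 0.236. *Olfm1* measured 152 TPM in young TOM+ cDC2, 111 TPM in young TOM- DC2 and 17.7 TPM in adults on average. Nearest to *Lgals3* were *Nucb2* (0.085), *Tube1* (0.0912) and *Nme1* (0.0937). *Nme1*, a nucleoside diphosphate kinase gene, measured 215, 203 and 97.4 TPM in the same order. Nearest to *Lgals3bp* were *Nxpe3* (0.0618), *Cyp4f16* (0.0862) and *Shisa5* (0.0879), and *Cyp4f16* measured 366, 409 and 799 TPM. Nearest to *Lgals8* were *Wac* (0.0349), *Haao* (0.0503) and *Rsbn1* (0.0524), and to *Lgals9* *Zwint* (0.0453), *Ptpn18* (0.0463) and *Spsb3* (0.0514). A flat profile lies near many others, and the root mean square of the profile itself was 0.101 for *Lgals9* and 0.203 for *Lgals8*, against 1.4 for *Lgals1*. These distances describe the 9 libraries and were not tested.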

How the data were processed

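The study's methods and labels describe SMART-seq libraries from sorted splenic DCs, sequenced as single-end reads without strand information. The authors aligned reads to mm10 with STAR and quantified RefSeq transcripts with RSEM, and versions are not given in the sources used here. The authors deposited STAR's counts per gene, of which the unstranded column was used without normalization, since each stranded column held 50.4% to 50.7% of it. The deposited RSEM files hold expected counts, used rounded in an alternative, TPM, used for levels, and FPKM, not used. STAR's summary lines, which name no gene and held 26.1% to 31.6% of reads, entered neither library sizes nor tests.

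Counts of all 9 libraries were fitted together in R 4.3.3 with edgeR 4.0.16 (quasi-likelihood test, TMM, average count of at least 1, Benjamini-Hochberg over 14452 genes). TMM factors were 1.02 to 1.08 in young and 0.894 to 0.928 in adult libraries. SE and 95% intervals come from that test. Alternatives used DESeq2 1.42.0, limma 3.58.1 with a pseudocount of 1 or 0.1, other filters and fits, and each library left out. The tests were tested on simulated data. No libraries of a group were copies of each other, with a chi-square per gene of at least 7.84. Counting limits cover counting error only.

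Young libraries of the same number deviated together from their group means (correlations of 0.764, 0.569 and 0.516 over genes), so the number was taken to pair them. Of the 4 pairs of a young and an adult library of the same number, 3 were over 0.1 (0.208, 0.145 and 0.162). The remaining pair was at -0.00181, so the rule for pairing across ages, that every pair be over 0.1, was not met. The replicate block was still fitted to all 9 libraries, and adult libraries 91 and 92 shared its terms with young libraries of these numbers. Values with the block against adults therefore rest on a pairing across ages that did not meet the rule. This pairing is read from the data and not stated by the study.

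Genes named are the 5 genes, all other galectin family genes, up to 4 genes with the largest log2FC among those called from each list of related genes, and the 3 nearest profiles. The genes and lists were chosen with earlier results of these data known. Marker lists covered cDC2, ESAM-high and ESAM-low cDC2, monocytes, macrophages, neutrophils, B cells, T cells, cDC1, pDC, erythroid cells and ILC3. Upstream sequences are from RefSeq (GRCm38.p6), which matched 4 of the 5 genes.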

Additional observations from a re-analysis of the deposited data

Results flagged for a closer look

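*Lgals3* differed from adult TOM+ cDC2 by more in young TOM+ cDC2 than in young TOM- DC2. The difference between these changes, which is that between the young groups, was a log2FC of 0.3057 with the library number as a replicate block (edgeR padj = 0.00443), in the same direction in 3 of 3 pairs. Without the block it was 0.30 (edgeR padj = 0.306).

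*Grifin* rose over adults in young TOM- DC2 and did not pass in young TOM+ cDC2, and the test of the difference itself passed (log2FC -2.68, SE 0.46, edgeR padj = 0.00917), from at most 60 counts in a library. Without young TOM- DC2 library 81 it was -2.39 (edgeR padj = 0.0361). The highest of its libraries, young TOM- DC2 library 81 at 13.45 TPM, is the library that also held most erythroid and neutrophil transcripts, and *Grifin* was above all libraries of the other groups in all 3 of TOM- DC2. Groups of 3 libraries were too small for a test of single libraries that stand apart.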

How the results depend on the processing

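With each library left out in turn, the genes called numbered 1638 to 1887 (young TOM+ cDC2 against adults), 1486 to 1679 (young TOM- DC2 against adults) and 126 to 176 (young TOM+ cDC2 against TOM- DC2). The log2FC of *Lgals8* and *Lgals9* in young TOM- DC2 against adults ranged from -0.3982 to -0.2616 and from 0.1365 to 0.2577, and that of *Lgals1* between the young groups from -0.00159 to 0.1924. The lowest of the last, without young TOM- DC2 library 81, is reversed. Limma on log2(TPM + 1) called 1122 and 986 genes against adults, where edgeR called 1853 and 1631, and with genes over a mean of 1 TPM it called 1101, 946 and 94 in the 3 comparisons. The share of calls higher in young TOM+ cDC2 than in adults was 46.5% by edgeR and 55.2% and 55.8% by these, and 57.4% by limma on log2(TPM + 0.1), which also moved that of young TOM- DC2 from 57.6% to 70.3%. On log2(TPM + 1), with or without that filter, the log2FC of *Lgals9* was 0.2056 and 0.3589 and that of *Lgals8* in young TOM- DC2 -0.1465. On log2(TPM + 0.1) they were 0.2079, 0.3627 and -0.1507. The cause was not tested. *Lgals3bp* in young TOM- DC2 had a log2FC of -0.969 at the nearest to 0 and was called in 16 of 19 alternatives. With the replicate block 274 genes were called between the young groups, and in the 6 young libraries alone, a fit added after seeing the data like the list counts and galectin family values without library 81, 341. There *Lgals3* had a log2FC of 0.3057 and 0.3071 (edgeR padj = 9.55e-05 in the latter). Apart from *Lgals3* passing on padj, the block moved none of the 5 genes across the threshold in the 3 comparisons. *Lgals1*, *Lgals3*, *Lgals8* and *Lgals3bp* passed in 19 of 19 alternatives in young TOM+ cDC2 against adults. With 3 libraries a group, small differences such as those of *Lgals9* could not be settled.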
